A study of Homo sapiens with 93 samples.

Results

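The TNF receptor superfamily genes described here are 10 genes for cell surface receptors, chosen by Ensembl identifier: TNFRSF18, TNFRSF4, TNFRSF14, TNFRSF8, TNFRSF9, TNFRSF1A, TNFRSF1B, TNFRSF13B, TNFRSF13C and TNFRSF17. All 10 were among the 14000 features of the count table, and all 10 passed the filter of at least 10 counts in at least 47 libraries. They were measured in 93 human lymphoblastoid cell lines, B cells immortalised with Epstein-Barr virus, by CUT&Tag for H3K36me3, in which an antibody guides a transposase to chromatin that carries trimethylated lysine 36 of histone H3. Every line was grown in medium with 20% serum, 100000 cells were frozen per assay and libraries were amplified over 14 PCR cycles. The lines form 1 group with 1 library each, so no treated and control lines were compared, and differences between lines hold differences of line, culture and library preparation together. Growth was in 4 batches, and the labels do not give a line's batch.

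TNF receptors are membrane proteins that bind trimeric ligands of the TNF family through cysteine-rich repeats and recruit TRAF adaptors, which lead to NF-kB activation, or, in receptors with a death domain, adaptors of cell death. In B cells the receptors of the ligands BAFF and APRIL serve survival and antibody responses, and in cells carrying Epstein-Barr virus the viral protein LMP1 signals much as an active receptor of this family does. H3K36me3 is laid down over the bodies of genes as RNA polymerase II transcribes them.

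Of the receptor genes, 6 lie on chromosome 1 and the others on 4 further chromosomes (RefSeq, GRCh38.p14). TNFRSF18 (ENSG00000186891.14, chr1:1203508-1206592) and TNFRSF4 (ENSG00000186827.11, chr1:1211340-1214153) are neighbours, 4747 bases apart. TNFRSF8 (ENSG00000120949.15, chr1:12063303-12144207) and TNFRSF1B (ENSG00000028137.19, chr1:12166991-12209220) are also neighbours, 22783 bases apart, and both neighbouring pairs sit on adjacent rows of the table. TNFRSF14 (ENSG00000157873.17, chr1:2554234-2563829) and TNFRSF9 (ENSG00000049249.9, chr1:7915871-7940839) lie between these pairs. The others are TNFRSF1A (ENSG00000067182.8, chr12:6328771-6342076), TNFRSF17 (ENSG00000048462.11, chr16:11965210-11968068), TNFRSF13B (ENSG00000240505.9, chr17:16939081-16972118) and TNFRSF13C (ENSG00000159958.6, chr22:41922032-41926806). TNFRSF17 overlaps the coding gene NPIPB2, and TNFRSF14 overlaps TNFRSF14-AS1, an antisense transcript, so reads in the shared spans cannot be told apart. TNFRSF13C and CENPM are 389 bases apart, and TNFRSF1A and PLEKHG6 264 bases.

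RefSeq promoter windows were found for 7 of the 10 genes. The 250 bases before the start are shown for TNFRSF8, TNFRSF1B and TNFRSF13B, which rose and fell together across lines, and for TNFRSF9, which ran opposite to TNFRSF1B and TNFRSF13B. Capitals mark matches, on either strand, of GGG and CC with 5 bases of any kind between them, a loose form of the NF-kB site; neighbouring matches can overlap.
TNFRSF8, chr1:12063053-12063302, plus strand: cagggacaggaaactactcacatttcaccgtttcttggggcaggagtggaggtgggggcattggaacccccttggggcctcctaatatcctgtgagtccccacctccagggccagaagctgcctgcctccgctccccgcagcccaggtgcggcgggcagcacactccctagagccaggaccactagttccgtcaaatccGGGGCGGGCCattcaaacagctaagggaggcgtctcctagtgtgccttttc
TNFRSF1B, chr1:12166741-12166990, plus strand: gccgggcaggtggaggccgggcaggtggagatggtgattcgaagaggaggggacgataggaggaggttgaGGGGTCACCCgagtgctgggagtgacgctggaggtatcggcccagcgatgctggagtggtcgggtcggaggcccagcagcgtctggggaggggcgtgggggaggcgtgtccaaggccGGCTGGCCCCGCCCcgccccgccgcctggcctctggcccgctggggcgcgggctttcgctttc
TNFRSF13B, chr17:16972119-16972368, minus strand: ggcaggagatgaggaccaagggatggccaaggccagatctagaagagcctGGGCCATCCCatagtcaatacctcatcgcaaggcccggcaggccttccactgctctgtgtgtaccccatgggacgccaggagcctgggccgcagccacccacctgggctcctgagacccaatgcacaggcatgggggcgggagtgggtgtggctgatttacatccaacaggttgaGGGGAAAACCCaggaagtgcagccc
TNFRSF9, chr1:7940840-7941089, minus strand: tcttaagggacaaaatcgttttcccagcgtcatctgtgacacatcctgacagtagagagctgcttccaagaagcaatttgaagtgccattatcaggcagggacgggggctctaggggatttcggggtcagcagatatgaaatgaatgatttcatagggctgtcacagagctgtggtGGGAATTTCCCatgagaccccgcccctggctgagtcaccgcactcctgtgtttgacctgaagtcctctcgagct
A match was present in 6 of the 7 windows, against 54.4% of 35116 RefSeq promoter windows of this length. TNFRSF1A was the gene without one. In TNFRSF9 the match nearest the start begins 73 bases before it and reads GGAATTTCCC, letters that 0.148% of all windows hold on either strand. These letters were taken from the TNFRSF9 window itself, so that its match to them is no finding, and a match does not show binding.

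The shallowest library held 2842955 counts, the median one 14883653 and the deepest 24325746. Counts were scaled to a common library total (CPM) with TMM factors, which correct for composition. Dynamic range, the gap in median log2 CPM between the top and bottom of 5 equal parts of the features by level, ran from 4.25 to 5.07. It describes how far a library separates features of high level from those of low level, without scaling to length. In a stretch of the table after row 1900 up to row 3200, a drop in counts was fitted to every library. Its size, 0.87 log2, was shared by all libraries, and its row differed between them (2017 to 3047). Whether a given library has a drop was not tested. TNFRSF1A, at row 2933, lies inside this stretch.

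Per feature, with no scaling to length, the H3K36me3 level was highest over TNFRSF8, which encodes CD30, a receptor of activated lymphocytes. Its counts ran from 1068 to 17247 between lines, with a median of 7784, and its CPM from 361 to 971, with a median of 544. TNFRSF1B, the gene for TNFR2, the TNF receptor without a death domain, had 650 to 11596 counts and 147.5 to 486 CPM, with a median of 274. The highest line of TNFRSF8 lay above the next at 787 CPM, and the lowest of TNFRSF1B below the next at 180.3 CPM. No line was above 2 times or below 0.5 times either gene's median. A low count from fewer cells with the mark and one from less mark per cell cannot be told apart in these bulk libraries.

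The receptors of BAFF and APRIL were marked to very different extents per feature. TNFRSF13B, which encodes TACI, a receptor of both ligands, had 372 to 5298 counts and 96.0 to 263 CPM, with a median of 169. TNFRSF13C, the gene for the BAFF receptor, which B cells need to survive, had 53 to 1272 counts and 14.6 to 57.2 CPM, with a median of 28.6. TNFRSF17, the gene for BCMA, a receptor of plasma cells, had 4 to 125 counts and 1.47 to 9.27 CPM, with a median of 4.16. TNFRSF17 values of the shallowest lines therefore rest on few counts: the lowest, 4 counts, has a 95% exact Poisson interval of 0.401 to 3.77 CPM, which covers counting error only.

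TNFRSF14, which encodes HVEM, a receptor of LIGHT and BTLA, had 172 to 3212 counts and 41.6 to 139 CPM, with a median of 79.9. TNFRSF1A, the gene for TNFR1, the TNF receptor with a death domain, had 38 to 1519 counts and 7.98 to 63.7 CPM, with a median of 27.7. Its low end was long: 9 lines were below 0.5 times the median, and 2 lines were above 2 times the median.

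The receptors best known as costimulators of T cells had low counts. TNFRSF9, the gene for CD137, had 26 to 573 counts and 8.57 to 28.2 CPM, with a median of 14.0. TNFRSF18, the gene for GITR, had 3 to 279 counts and 0.774 to 15.8 CPM, with a median of 7.57. TNFRSF4, the gene for OX40, had 1 to 200 counts and 0.368 to 11.6 CPM, with a median of 6.07. The lowest value of TNFRSF18 stands apart from the next, 2.10 CPM, but rests on 3 counts, with an exact Poisson interval of 0.160 to 2.26 CPM. The lowest of TNFRSF4, from 1 count in the shallowest library, has an interval of 0.00931 to 2.05 CPM, and the next line was at 1.55. The highest values of TNFRSF18 and TNFRSF4 came from the same line.

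**Figure D1:**
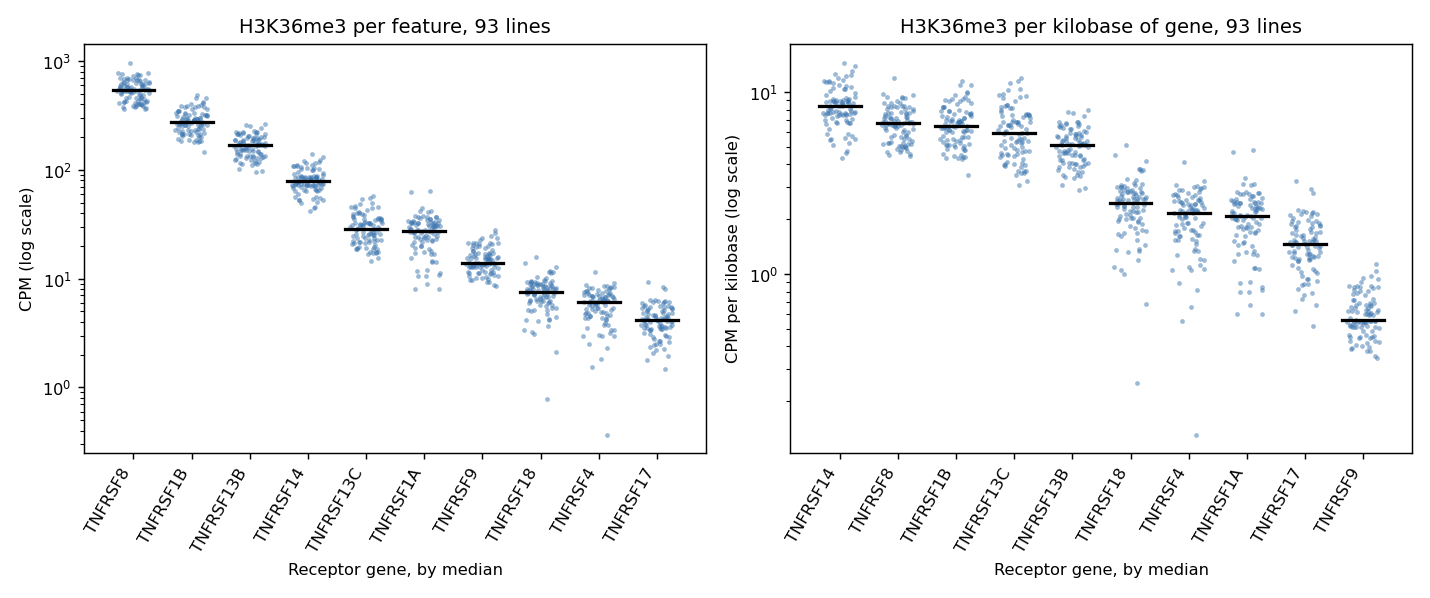
H3K36me3 of the 10 receptor genes in 93 lines, as CPM per feature (left) and CPM per kilobase of RefSeq gene span (right), both on log axes; each point is a line and each bar the median. Per kilobase, TNFRSF14, TNFRSF8, TNFRSF1B, TNFRSF13C and TNFRSF13B have medians of 5.11 to 8.32, and the other genes 0.559 to 2.46.

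Levels between genes were compared per kilobase of RefSeq gene span, the interval counted by the authors being not given in the sources used here. On this scale TNFRSF14 was highest, with a median of 8.32 CPM per kilobase, and lay above TNFRSF8 (6.72) in 81 of 93 lines. TNFRSF8 and TNFRSF1B (6.50) did not differ beyond their spread: the mean log2 ratio was 0.03 ± 0.34 (SD, n = 93), with TNFRSF8 higher in 47 lines. TNFRSF13C followed at 5.98, with a log2 ratio of TNFRSF1B to TNFRSF13C of 0.14 ± 0.35, and TNFRSF13B at 5.11, with a log2 ratio of TNFRSF13C to TNFRSF13B of 0.25 ± 0.28. TNFRSF13C, much lower than TNFRSF13B per feature, was thus not lower per kilobase; its span is 4.78 kb against 33.04 kb.

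A wide gap came next. TNFRSF13B lay above TNFRSF18 (2.46 CPM per kilobase) in 91 of 93 lines, by a log2 ratio of 1.14 ± 0.68. TNFRSF18, TNFRSF4 (2.16) and TNFRSF1A (2.08) followed, with log2 ratios of 0.25 ± 0.65 and 0.01 ± 0.73 between neighbours in this order, less than the SD. The SD describes single lines and is no test of the mean ratio. TNFRSF18 lay above TNFRSF4 in 69 of 93 lines and TNFRSF4 above TNFRSF1A in 54. TNFRSF17 (1.46) was lower than TNFRSF1A by 0.42 ± 0.70, again less than the SD, and lay below it in 72 of 93 lines. TNFRSF9 was lowest, at 0.559 CPM per kilobase, and lay below TNFRSF17 in 89 of 93 lines, by 1.27 ± 0.68.

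The level of all features changes along the table, and the order above was not corrected for this. The 100 rows on either side had a median of up to 6.13 log2 CPM for the 6 genes on chromosome 1 (6.01 for TNFRSF14), 5.28 for TNFRSF17, 5.09 for TNFRSF13C, 4.79 for TNFRSF13B and 4.34 for TNFRSF1A. The 6 genes on chromosome 1 lie before the fitted drop of 0.87 log2 in every library, and TNFRSF17, TNFRSF13B and TNFRSF13C after it. That step is larger than the mean log2 ratio of TNFRSF1B to TNFRSF13C, 0.14. The part of table position and of the drop in the order was not tested.

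Most of the spread between lines lay above counting error. The coefficient of variation of CPM ran from 0.218 for TNFRSF8 to 0.368 for TNFRSF1A, against a median of 0.205 over all tested features. Counting error at the median line was 0.0113 for TNFRSF8 and 0.0542 for TNFRSF1A, and it was largest for TNFRSF17, at 0.139 against a coefficient of variation of 0.330.

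After depth and dynamic range were fitted, 6 of the 10 receptor genes varied more between lines than features of like abundance, against 18.6% of 13915 features tested (edgeR goodness-of-fit test against the trended dispersion, Benjamini-Hochberg adjustment over all features at 0.05). The excess was largest for TNFRSF1A, whose dispersion lay 2.02 log2 units above the trend (adjusted p = 3.55e-30). TNFRSF13C lay 1.42 above it (adjusted p = 1.20e-13) and TNFRSF1B 1.02 (adjusted p = 6.36e-08). TNFRSF14 (0.63, adjusted p = 0.00289), TNFRSF13B (0.62, adjusted p = 0.00308) and TNFRSF8 (0.55, adjusted p = 0.0102) also passed. TNFRSF9 (0.49, adjusted p = 0.0606), TNFRSF17 (0.45, adjusted p = 0.0890), TNFRSF4 (0.29, adjusted p = 0.123) and TNFRSF18 (0.34, adjusted p = 0.129) did not. The median of the 10 genes was 0.58, against -0.51 over all features.

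**Figure D2:**
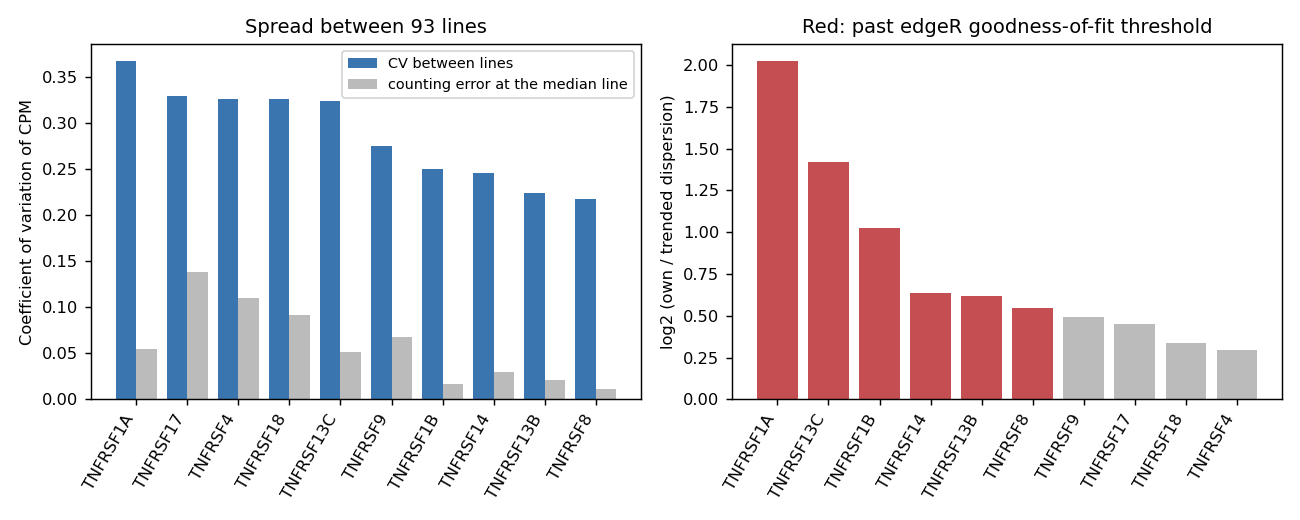
Left, coefficient of variation of CPM between 93 lines (blue) beside the counting error at the median line (grey). Right, log2 ratio of own to trended dispersion after depth and dynamic range; red genes passed the goodness-of-fit test. TNFRSF1A is highest in both, at 0.368 and 2.02.

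The calls of TNFRSF1A and TNFRSF1B stood under every alternative in which they were tested with edgeR, 10 and 11 in number. TNFRSF13C passed in 9 of 11, TNFRSF14 in 8, TNFRSF13B in 6 and TNFRSF8 in 4. Of the genes that did not pass over all lines, TNFRSF9 passed in 5 of 11, TNFRSF18 in 3, TNFRSF4 in 1 and TNFRSF17 in 0. Without the shared patterns that 10 principal components take up, 3 genes passed (TNFRSF9, TNFRSF1A and TNFRSF1B), against 18.1% of features, and none of the 10 was a dispersion outlier by DESeq2, a stricter rule that called 1.74% of features.

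TNFRSF1A moved with the drop in counts. In 3 lines the drop came after its row, and TNFRSF1A had 26.2, 62.5 and 63.7 CPM there; in the other 90 lines it ran from 7.98 to 44.6, with a median of 27.6. The highest 2 lines of all were thus lines in which the fitted drop came after the row. The mean difference was 0.93 log2, and the 20 tested features within 10 rows of TNFRSF1A had a median difference of 0.94, above 0 in 20 of 20. Receptor genes far from the stretch were also higher in these 3 lines, by 0.54 log2 for TNFRSF8, 0.43 for TNFRSF13C, 0.40 for TNFRSF1B, 0.33 for TNFRSF18, 0.32 for TNFRSF14 and 0.30 for TNFRSF13B, and by 0.06 for TNFRSF4; TNFRSF17 (-0.01) and TNFRSF9 (-0.19) were lower. These differences were not tested. Of the 3 lines, those with 26.2 and 62.5 CPM had the fitted drop at row 2947, close to row 2933 of TNFRSF1A. Rows within 10 of TNFRSF1A were left out of that fit. In 10 lines the drop lay within 50 rows of TNFRSF1A, and there its side hangs on few rows. With the side of the drop as a further covariate, TNFRSF1A still varied beyond the trend (adjusted p = 3.54e-27, edgeR goodness-of-fit test). That covariate parts 3 lines from 90, so it cannot take up differences within the 90. TNFRSF1A also passed with the row of the drop as the further covariate.

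Within the 90 lines, TNFRSF1A was higher the later the drop came. The residuals had r = 0.353 (p = 0.00067) and rho = 0.382 (p = 0.00023, permutation tests, n = 90), and r = 0.354 once the 2 lines with the most extreme drop rows were left out. The other receptor genes, which lie far from the stretch, shared this relation. Of the 10 genes, 9 were higher with a later drop, against 36.1% of all features, and 25.3% of features were lower (limma, adjusted over all features). The 20 tested features within 10 rows of TNFRSF1A were mixed: 10 were higher with a later drop and 5 lower. The slope per 100 rows was 0.13 log2 ± 0.02 (SE) for TNFRSF13B (adjusted p = 1.90e-11), 0.17 ± 0.03 for TNFRSF13C (adjusted p = 1.73e-08) and 0.13 ± 0.04 for TNFRSF1A (adjusted p = 0.00132, limma). TNFRSF9 alone did not pass (-0.03 ± 0.02, adjusted p = 0.281). The part of the drop in the spread of the receptor genes was not tested.

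**Figure D3:**
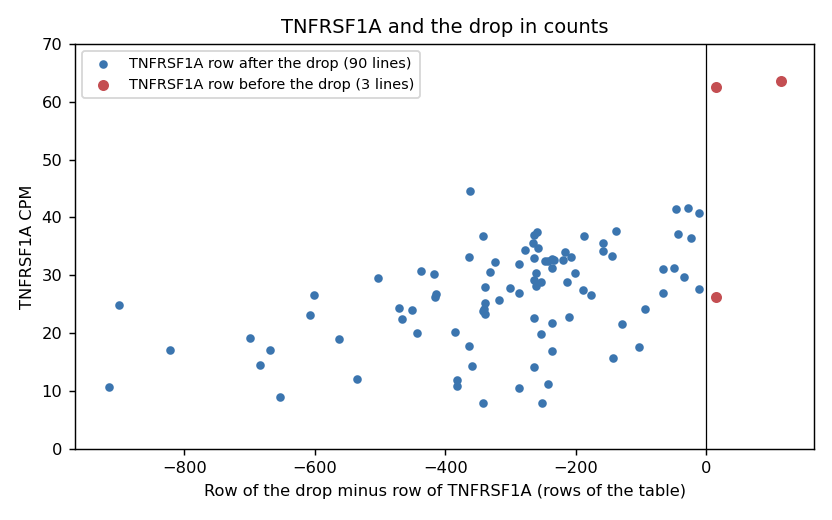
TNFRSF1A CPM in each of 93 lines against the row fitted as the drop of that library, relative to the row of TNFRSF1A. The 3 red lines, whose drop comes after TNFRSF1A, include the 2 highest values (62.5 and 63.7), and the 90 blue lines run from 7.98 to 44.6.

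Depth and dynamic range also moved with the receptor genes. With a doubling of the library total, log2 CPM was higher for 8 genes, against 30.6% of all features, and lower for TNFRSF9 (-0.21 ± 0.05, SE, adjusted p = 6.42e-05, limma), against 34.4%. TNFRSF18 rose by 0.37 ± 0.06 (adjusted p = 4.32e-07) and TNFRSF1A by 0.34 ± 0.08 (adjusted p = 0.000118). Without the 10 shallowest libraries these slopes were 0.24 and 0.31, and in the 47 deeper libraries TNFRSF18 did not pass (0.04) while TNFRSF1A did (1.52). TNFRSF17 did not pass (-0.04 ± 0.07, adjusted p = 0.589). With wider dynamic range 6 genes were higher, against 44.2% of features, and 2 lower, against 35.8%. Dynamic range is made from the levels of features, so the direction of a slope is partly built in by level. TNFRSF8, TNFRSF1B and TNFRSF13B lie in the top part that sets it and were higher. TNFRSF4 lies in the bottom part and was lower. Of the other genes in the bottom part, TNFRSF17 was higher and TNFRSF18 did not pass. TNFRSF13C rose most, by 1.23 ± 0.28 log2 per unit of range (adjusted p = 4.74e-05), and TNFRSF9 (-1.20 ± 0.23, adjusted p = 1.48e-06) and TNFRSF4 (-1.02 ± 0.33, adjusted p = 0.00424, limma) were lower. TNFRSF9 was thus the receptor gene that was lower with both. In the 46 shallower libraries alone, 5 genes passed for library total, against 32.5% of features, and 1 for dynamic range, against 59.9%. In the 47 deeper ones 6 passed for library total, against 28.6%, and 10 for dynamic range, against 73.8%.

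Some pairs of receptor genes rose and fell together across lines, and most did not pass. With depth and dynamic range removed, 15 of 45 pairs of receptor genes rose and fell together (33.3%), against 15.8% of all tests of a receptor gene with another feature. The pairs that ran opposite were 2 (4.44%), against 14.9%, and 28 did not pass (limma, adjusted over 139140 tests at 0.05).

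The share of features that moved with a gene differed by gene. TNFRSF13B had 6 receptor genes rising with it (30.8% of all features did) and 1 opposite (25.7%). TNFRSF13C had 6 (28.4%) and 0 (26.5%), and TNFRSF14 5 (19.6%) and 0 (21.2%). TNFRSF8 had 4 (22.4%) and 0 (21.6%), and TNFRSF1B 4 (23.7%) and 1 (24.1%). For these 5 genes many features moved either way, and few or no receptor genes ran opposite. TNFRSF1A had 2 (10.4%) and 0 (14.5%), TNFRSF17 2 (13.3%) and 0 (7.68%), and TNFRSF18 1 (3.18%) and 0 (2.42%). TNFRSF4 had none in either direction (3.56% and 2.49% of features), and TNFRSF9 none rising with it (2.62%) and 2 opposite (3.11%).

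The closest pair was TNFRSF13B and TNFRSF13C, the genes for TACI and the BAFF receptor, on chromosomes 17 and 22. Their residual log2 CPM had r = 0.758 and rho = 0.752 across lines (p = 1e-05 for each, the smallest 100000 permutations can give, n = 93; adjusted p = 1.74e-15, limma), and r = 0.770 when the 2 lines most extreme in TNFRSF13B were left out (in the pairs that follow, the 2 lines most extreme in 1 gene of the pair). Their CPM ratio ran from 3.84 to 10.0, with a median of 5.83. The SD of the log2 ratio was 0.28, against 0.56 for uncorrelated genes of the same spread. By the moderated statistic, TNFRSF13C ranked 46 of 13894 features more than 10 rows away in likeness to TNFRSF13B, and TNFRSF13B ranked 24 in likeness to TNFRSF13C. Within the 46 shallower libraries r was 0.755 and within the 47 deeper ones 0.680.

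TNFRSF17, the gene of the remaining receptor of these ligands, followed both. It had r = 0.434 and rho = 0.450 with TNFRSF13B (p = 3e-05 and 2e-05, permutation tests; r = 0.474 without 2 lines; adjusted p = 0.000147, limma) and r = 0.403 and rho = 0.410 with TNFRSF13C (p = 8e-05 and 6e-05, permutation tests; r = 0.397 without 2 lines; adjusted p = 0.000528, limma). Neither relation passed in the 47 deeper libraries, where r was 0.322 and 0.176. TNFRSF17 had no other partner among the receptor genes past the threshold.

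The 5 genes with the highest level per kilobase, TNFRSF14, TNFRSF8, TNFRSF1B, TNFRSF13B and TNFRSF13C, were all linked to each other: 10 of their 10 pairs passed, with r from 0.42 to 0.758. Of all features, from 19.6% (TNFRSF14) to 30.8% (TNFRSF13B) rose with these genes. TNFRSF14 had r = 0.649 and rho = 0.559 with TNFRSF1B and r = 0.617 and rho = 0.620 with TNFRSF8 (p = 1e-05 for each, permutation tests, n = 93). Without 2 lines r was 0.576 and 0.544. TNFRSF1B and TNFRSF13B had r = 0.631 and rho = 0.612 (p = 1e-05 for each, permutation tests), and 0.617 without 2 lines. These genes lie on 3 chromosomes. That the 5 form such a group was seen in the values and is a description.

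TNFRSF8 and TNFRSF1B, next to each other, had r = 0.42 and rho = 0.389 (p = 3e-05 and 0.00012, permutation tests; r = 0.450 without 2 lines; adjusted p = 0.000229, limma), the lowest r of these 10 pairs. TNFRSF18 and TNFRSF4, also neighbours, had r = 0.130 (p = 0.202) and rho = 0.319 (p = 0.00192, permutation tests; r = 0.130 without 2 lines) and did not pass (adjusted p = 0.367, limma). Before depth and dynamic range were removed their r was 0.469. The value for this pair changed with depth. Without the 10 shallowest libraries r was 0.531 (adjusted p = 6.50e-06) and in the 47 deeper libraries 0.589 (adjusted p = 0.00193), among the closest pairs there, whereas in the 46 shallower ones it was -0.108 (adjusted p = 0.701, limma). The lowest counts of both genes, 3 and 1, come from shallow libraries. Some genes were closer to an adjacent row whose name the files do not give, such as TNFRSF8 (r = 0.733 with the row before it) and TNFRSF17 (r = 0.636).

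TNFRSF9 ran the other way. It had r = -0.270 and rho = -0.283 with TNFRSF13B (p = 0.00922 and 0.0062, permutation tests; r = -0.269 without 2 lines; adjusted p = 0.0316, limma) and r = -0.268 and rho = -0.298 with TNFRSF1B (p = 0.00907 and 0.00406, permutation tests; r = -0.229 without 2 lines; adjusted p = 0.0330, limma). Both are weak and neither passed within the shallower or the deeper libraries alone, where r was between -0.229 and -0.338.

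**Figure D4:**
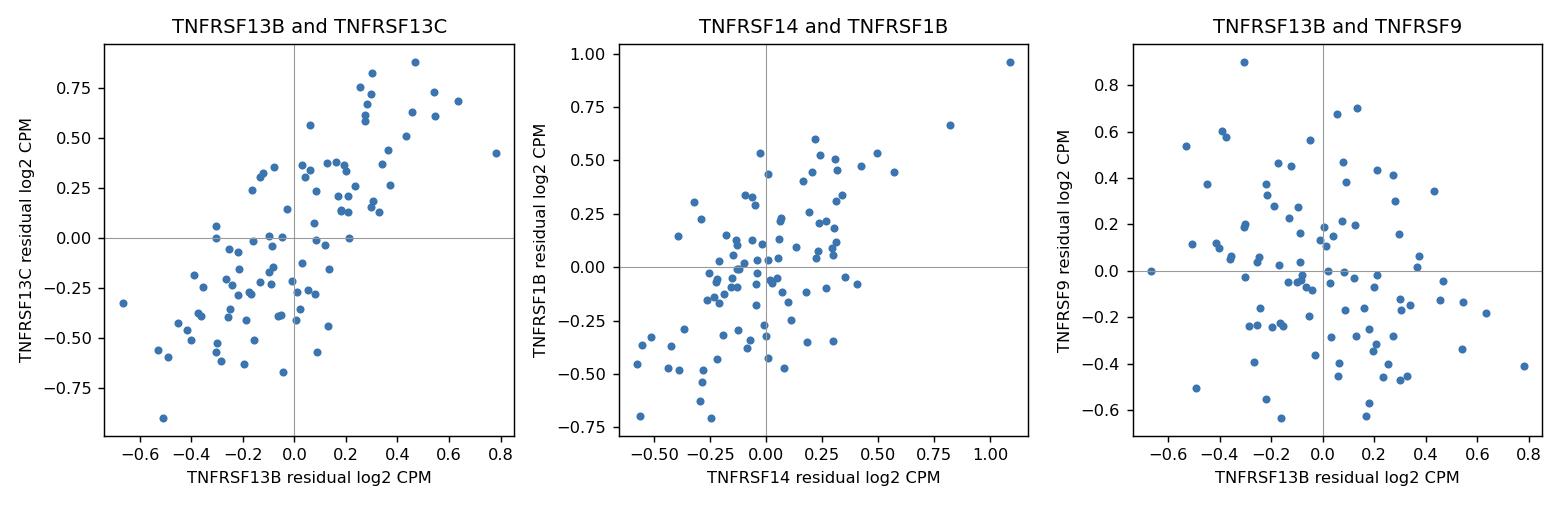
Residual log2 CPM, after depth and dynamic range, of 3 pairs of receptor genes, with 1 point per line (n = 93). TNFRSF13B and TNFRSF13C rise together (r = 0.758), as do TNFRSF14 and TNFRSF1B (r = 0.649), and TNFRSF13B and TNFRSF9 run weakly opposite (r = -0.270).

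TNFRSF1A passed with TNFRSF13C (r = 0.297) and TNFRSF13B (r = 0.259) but not with TNFRSF1B, the gene of the other TNF receptor (r = 0.231, rho = 0.376, p = 0.0264 and 0.00019, permutation tests; r = 0.253 without 2 lines; adjusted p = 0.0726, limma). Both calls changed with the libraries used. TNFRSF1A with TNFRSF13C passed in 7 of 12 alternatives and TNFRSF1A with TNFRSF13B in 5 of 12. In the 47 deeper libraries r was 0.00022 with TNFRSF13C and 0.0715 with TNFRSF13B, and without the 10 shallowest libraries the call with TNFRSF13B was lost (adjusted p = 0.0958, limma), as it was with DESeq2 size factors (adjusted p = 0.0631, limma). TNFRSF18 passed with TNFRSF14 (r = 0.278) over all lines, and TNFRSF4 with no other receptor gene. Without the 10 shallowest libraries TNFRSF18 passed with TNFRSF4, as above, and with TNFRSF8 (r = 0.309, adjusted p = 0.0195), and TNFRSF4 passed with TNFRSF1A (r = 0.326, adjusted p = 0.0127, limma).

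Most of these relations were lost once patterns shared across the table were fitted. The first 10 principal components of all features held 87.1% of the variance of TNFRSF13B, 85.9% of that of TNFRSF14 and 80.3% of that of TNFRSF13C, against a median of 65.6% over all features and 50.2% for TNFRSF17. With 5 components as covariates in place of depth and dynamic range, 3 pairs passed together, against 1.20% of all tests. With 10 components no pair passed in either direction (limma, adjusted), against 0.0719% and 0.0352% of all tests, and r of TNFRSF13B with TNFRSF13C was 0.153. At an unadjusted p under 0.05 (limma), 3 pairs were together and 4 opposite, and no share of all tests is given at that threshold. With the row of the drop added as a covariate, 9 pairs passed together, against 5.89% of all tests, and r of TNFRSF13B with TNFRSF13C was 0.624 (adjusted p = 2.94e-08, limma). TNFRSF8 then no longer passed with TNFRSF1B (r = 0.206), TNFRSF13B (r = 0.192) or TNFRSF13C (r = 0.258). Neither opposite pair of TNFRSF9 passed (adjusted p = 0.0906 with TNFRSF1B and 0.0660 with TNFRSF13B, limma), and the 1 opposite pair, against 5.46% of all tests, was TNFRSF18 with TNFRSF17 (r = -0.287, adjusted p = 0.0491, limma).

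**Figure D5:**
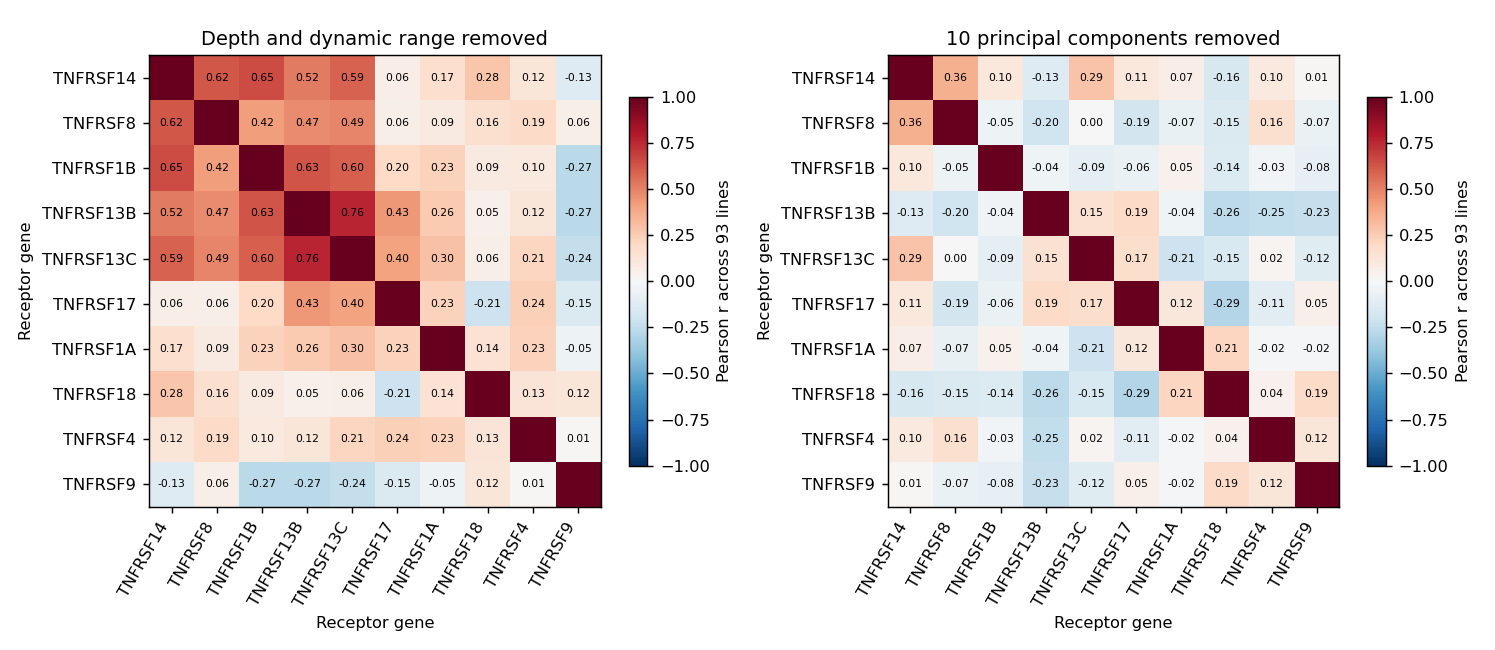
Pearson correlation of residual log2 CPM across 93 lines for each pair of receptor genes, with depth and dynamic range removed (left) and with 10 principal components removed (right). The red block of 5 genes on the left, r from 0.42 to 0.758, is pale on the right, where TNFRSF14 and TNFRSF8 keep r = 0.357 and TNFRSF13B and TNFRSF13C r = 0.153.

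The features most like each receptor gene were not other receptor genes. Among features more than 10 rows away, none of the 2 nearest to any of the 10 genes was itself one of them. Only 10 of 13915 tested features are receptor genes, so this outcome says little about likeness within the family. The closest were ENSG00000128340.15 and ENSG00000117091.10, both with TNFRSF13B (r = 0.857 and 0.842 over 93 lines). Among the 2 features with the largest absolute statistic for each gene, those that ran opposite with the lowest r were ENSG00000107164.16 with TNFRSF17 (r = -0.595) and ENSG00000122705.17 with TNFRSF18 (r = -0.545). The files do not pair these identifiers with names.

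In the authors' deposited normal scores the receptor genes kept the order of lines seen in the counts, with a Spearman correlation of score and log2 CPM from 0.975 for TNFRSF8 to 0.987 for TNFRSF17. On the scores 15 pairs passed together, against 10.7% of all tests, and 3 ran opposite, against 11.2% (limma, adjusted over all tests).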

How the data were processed

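H3K36me3 CUT&Tag libraries of 93 lymphoblastoid lines were used, 1 per line. The authors deposited whole-number read counts per feature and line, and normal scores of the same features; the submitters' processing notes list HISAT2 2.2.1, bedtools and hg38 without saying what each did. How the deposited scores were made was not stated in them. Receptor genes were matched by Ensembl identifier; coordinates, spans and promoters are from RefSeq (GRCh38.p14), matched by symbol (10 of 10). The other 86 genes fixed as lists (TNF ligands, other TNF receptors, adaptors, and B, plasma, T cell and monocyte markers) were not used, since 0 could be paired with identifiers, and the cell type was not checked by markers.

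Log2 CPM used TMM factors (edgeR 4.0.16, 0.916 to 1.05) and a prior count of 2. Fits ran over 13915 features with edgeR and limma 3.58.1 (R 4.3.3), with covariates for dynamic range and log2 library total, and p-values were adjusted over all features (Benjamini-Hochberg). A pair was called when both directions of the fit passed 0.05. Permutation tests are two-sided, with 100000 permutations (Python 3.11.15). The row of the drop was found by least squares, leaving out rows within 10 of a receptor gene. The fit placed a drop in every library, with the same size in all. Named features are the receptor genes and, by rule, the extremes of the 2 nearest features of each. Fits were tested on simulated data. The genes and lists were chosen with earlier results of these data known. No line has a second library, so p-values measure the spread between lines, technical differences included.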

Additional observations from a re-analysis of the deposited data

How the results depend on the processing

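Alternatives tried were the size factors and dispersion outliers of DESeq2 1.42.0, a prior count of 0.5, no filter, other covariates, fewer libraries, leaving out the rows after 1900 up to 3200, and the deposited scores; both covariates for the drop, and the relation of all features to its row, were chosen after seeing the data. Median levels moved by less than the SD between lines under each setting tried. Shares over all features or tests follow each count, except counts at an unadjusted p, for which no share is given. With 10 principal components 3 genes varied beyond the trend (18.1%) and 0 pairs passed in either direction (0.0719% together and 0.0352% opposite); with 5 components 3 pairs rose together (1.20%) and 0 ran opposite (0.919%; 5 at an unadjusted p under 0.05, limma). In the 47 deeper libraries 3 genes varied beyond the trend (14.5%), 9 pairs rose together (4.23%) and 0 ran opposite (3.58%; 2 unadjusted). In the 46 shallower ones 0 ran opposite (7.90%; 0 unadjusted), 5 genes followed library total (32.5%) and 1 dynamic range (59.9%). With the intercept only 5 pairs ran opposite (26.1%). With the row of the drop as a covariate 9 pairs rose together (5.89%) and 1 ran opposite (5.46%), TNFRSF18 with TNFRSF17, which is neither of the 2 pairs reported. DESeq2 called 0 receptor genes as outliers (1.74%), against 6 by edgeR. With 5 components r changed sign to -0.208 for TNFRSF1A and TNFRSF13B and -0.0958 for TNFRSF1A and TNFRSF13C. With 10 components it did so to -0.159 for TNFRSF18 and TNFRSF14, -0.127 for TNFRSF14 and TNFRSF13B, -0.0540 for TNFRSF8 and TNFRSF1B, -0.197 for TNFRSF8 and TNFRSF13B, -0.0449 for TNFRSF1A and TNFRSF13B, -0.206 for TNFRSF1A and TNFRSF13C, -0.0429 for TNFRSF1B and TNFRSF13B and -0.0940 for TNFRSF1B and TNFRSF13C. The dynamic range slope of TNFRSF17 was -0.0199 in the shallower libraries, and the library total slopes of TNFRSF4 and TNFRSF17 were -0.0408 and 0.163 in the deeper ones. Fewer libraries give less power by construction; otherwise the cause was not tested. In all, 425 values kept their direction and side of the threshold or moved little, 81 fell short of it, 14 passed it, 13 changed sign and 15, all counts of genes or pairs, moved by over 1.5 times. No paired analysis was possible because all lines form 1 group. Depth limits TNFRSF4, TNFRSF17 and TNFRSF18 most, with 1 to 4 counts in their lowest libraries.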
